A study of Mus musculus with 6 samples.

Results

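Kinesins are motor proteins that walk along microtubules, and the mouse genome encodes a large family of them under the name Kif. The genes described here are all symbols made of Kif, a number and at most a letter and a further digit, which gave 37 of the 24346 gene symbols in the deposited tables. They were sorted by their known roles into 13 transport kinesins, 12 other interphase kinesins, which shape microtubules, cilia or signalling, and 12 mitotic kinesins. Their messenger RNA was measured in 3 libraries from retinas labelled Cyfip2 CKO, a conditional knockout of Cyfip2, and in 3 libraries from wild-type (WT) retinas. Cyfip2 encodes a subunit of the WAVE complex, which drives branched actin assembly. The Cre driver, the age of the mice, and whether the libraries of a group came from separate animals are not stated in the labels, so p-values measure the spread between these libraries, which may be technical.

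A kinesin converts ATP into steps along a microtubule, and the rest of the protein selects the cargo. Neurons of the retina depend on transport kinesins to carry vesicle precursors, mitochondria and membrane proteins along axons and dendrites, and photoreceptors use a kinesin-II motor to build the outer segment, a modified cilium. Mitotic kinesins assemble the spindle, move chromosomes and complete cell division, and are made mostly in dividing cells. The neurons of the mature retina do not divide.

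All values are FPKM, fragments scaled to transcript length and to sequencing depth, so levels of different genes can be set side by side per length. Between 13149 and 13242 genes reached 1 FPKM in a library, and Pearson's r between libraries across the 13215 tested genes was 0.9681 to 0.9794. Sag, the arrestin of rod photoreceptors, was at 2841 to 3336 FPKM in CKO retinas and 3118 to 3594 FPKM in WT libraries. Of the corneal keratins, Krt5 and Krt14 were listed at 0 in all 6. Krt12 was low but above 0, at 0.259 to 0.567 FPKM in CKO and 0.237 to 0.383 FPKM in WT libraries. Cyfip2 itself was at 8.33, 10.2 and 11.2 FPKM in CKO retinas and at 35.5, 63.1 and 62.3 FPKM in WT libraries 1 to 3. Every CKO library was thus below every WT library, and WT 1 was well below the other WT libraries. Over all tested genes, 2 were higher (0.0151%) and 1, Cyfip2 itself, was lower (0.00757%) in CKO at an adjusted p under 0.05 (limma, Benjamini-Hochberg); the Cyfip2 call was lost, with 0 genes lower, when CKO 2, CKO 3 or WT 2 was left out.

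Transport kinesins made up most of the kinesin message of the retina. They held 73.8% ± 0.16 of the summed kinesin FPKM in CKO retinas and 73.0% ± 0.55 in WT (SD, n = 3 each), against 24.9% ± 0.0874 in CKO and 25.7% ± 0.443 in WT for the other interphase kinesins. Neither the transport share nor the other interphase share overlapped between the genotypes. The transport share only just did not, at 73.64% in CKO 1 and 73.6% in WT 1. As the mitotic share was small, these shares were nearly complements and not separate observations. Mitotic kinesins held 1.32% ± 0.124 in CKO and 1.35% ± 0.172 in WT. Of the 37 genes, 14 had a mean of at least 10 FPKM, and 10 of these 14 were transport kinesins. A further 10 lay between 1 and 10 FPKM, 11 lay below 1 FPKM without being at 0, and Kif12 and Kif2b were listed at 0 in every library. All 13 transport kinesins, but 2 of the 12 mitotic ones, reached the mean of 1 FPKM needed for testing.

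**Figure D1:**
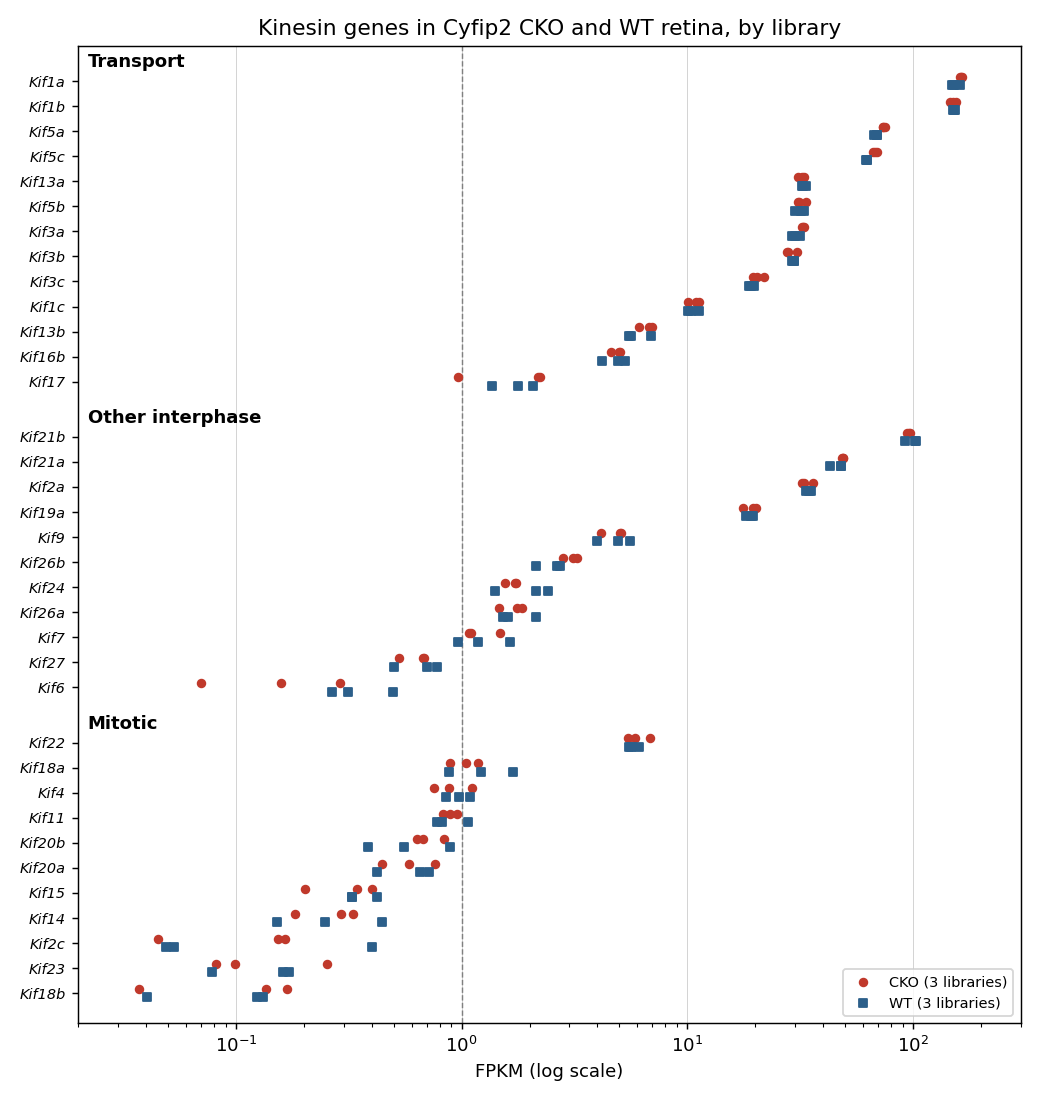
FPKM of the 35 kinesin genes above 0, on a log axis, by class, with 3 CKO libraries (circles) above 3 WT libraries (squares) in each line; the dashed line marks 1 FPKM. Transport kinesins span 0.961 to 165.6 FPKM, while all mitotic kinesins except Kif22 lie below 2 FPKM; Kif12 and Kif2b, at 0, are not drawn.

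The 5 most abundant kinesins, Kif1a, Kif1b, Kif21b, Kif5a and Kif5c, took 65.1% ± 0.415 of the kinesin FPKM in CKO retinas and 64.8% ± 0.603 in WT retina. Kif1a, which carries synaptic vesicle precursors and dense-core vesicles, led with a mean of 158.9 FPKM over the 6 libraries, and only 1.55% of all symbols had a higher mean. Kif1b, a motor of mitochondria and of synaptic vesicle precursors, followed at 151.3 FPKM, and the ranges of both genes over the libraries overlapped. Kif21b (97.6 FPKM), which restrains microtubule growth, stood apart from both neighbours in this order, Kif1b above it and Kif5a (71.3 FPKM) below it. Kif5a and Kif5c (65.3 FPKM), the neuronal heavy chains of conventional kinesin, overlapped in their ranges. Kif21a, the paralog of Kif21b, came next at 47.6 FPKM and was separated from Kif5c above it and Kif2a below it. From Kif2a (34.1 FPKM) through Kif13a, Kif5b and Kif3a to Kif3b (29.1 FPKM) each gene overlapped with the next. Over the whole order, 11 of 36 neighbouring pairs had ranges that did not overlap.

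The classes also differed in the letters of their promoters. A promoter window here runs from 250 bases before to 50 bases after a gene start in RefSeq (GRCm38.p6), and 35 such windows were found for 31 of the 37 genes, some of which have more than 1 start. The cell cycle genes homology region, CHR, is a short element through which a repressor complex silences cell division genes outside of division. Its letters, TTTGAA or TTCGAA on either strand, were in 9 of 11 windows of mitotic kinesins (81.8%), 1 of 12 windows of transport kinesins (8.33%, a second start of Kif1a) and 3 of 12 windows of the other interphase kinesins (25%). Over all 32851 windows of the same length, 19.2% held them. In 7 of the 9 mitotic genes the match closest to the start began within 20 bases of it. The exceptions were Kif14 and Kif2c. The windows of Kif18a and Kif2b held no match, and Kif20a had no window. The other interphase genes with a match were Kif24, Kif26b and Kif27. The closest match of each of the 9 mitotic genes is shown, to let the letters around the start be compared; each is given on the strand of its gene with 10 bases on either side, and the capitals mark the match, which reads TTCAAA where it lies on the other strand.
Kif14 (chr1:136467610-136467635, plus strand): aggtcctgtcTTTGAAgtctgcagtg
Kif2c (chr4:117178860-117178885, minus strand): aggctgctctTTCAAAcctgagtaat
Kif11 (chr19:37376353-37376378, plus strand): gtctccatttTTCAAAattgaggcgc
Kif15 (chr9:122951052-122951077, plus strand): gggcgccaaaTTCAAAtctgcggcca
Kif22 (chr7:127042422-127042447, minus strand): gccccggtaaTTCAAAagagagaagc
Kif23 (chr9:61946782-61946807, minus strand): gattggcctgTTTGAAatgcgccggg
Kif18b (chr11:102925106-102925131, minus strand): gaccggctagTTTGAAcgcgccgcgc
Kif20b (chr19:34922355-34922380, plus strand): gccgccattgTTTGAAtttgaaaacc
Kif4 (chrX:100626074-100626099, plus strand): ctgggatcaaTTTGAAacttggcggt
A match is a run of letters and not a measured binding site. The mitotic genes that hold one span mean levels from 0.106 FPKM for Kif18b to 5.89 FPKM for Kif22. Kif1a, which also holds one, had a mean of 158.9 FPKM.

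**Figure D2:**
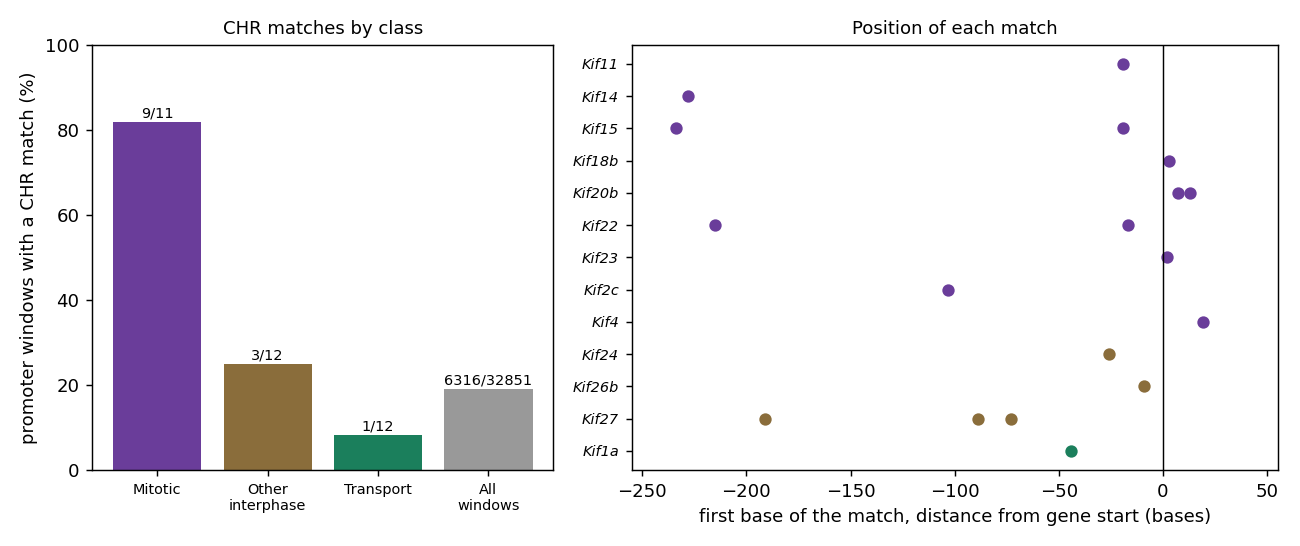
Left, the share of 300-base promoter windows with a CHR match (in percent, counts above the bars) for mitotic, other interphase and transport kinesins and for all windows in RefSeq; right, the distance of each match from the gene start in bases, coloured by class. Matches were in 9 of 11 mitotic and 1 of 12 transport windows.

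CHR was 1 of 9 motifs counted, all on both strands. The CCAAT box (CCAAT) was in 7 of 11 mitotic windows (63.6%), 4 of 12 transport windows (33.3%) and 37.4% of all windows. The GC box (GGGCGG) was in 6 of 11 mitotic windows (54.5%), 9 of 12 transport windows (75%) and 35.7% of all. E2F sites (TTTCGCGC, TTTGGCGC or TTTCCCGC) were in 2 mitotic windows, no transport window and 1.84% of all, and the cyclic AMP response element (TGACGTCA) in 1 mitotic window, 2 transport windows and 1.79% of all. The E box (CACGTG), the NRF1 consensus, the letters TAATCC that the photoreceptor factor CRX prefers, and the TATA box (TATAAA) were each in at most 1 window of the mitotic and of the transport class, against 7.15%, 0.971%, 7.06% and 13.6% of all windows. Of the 12 other interphase windows, 4 held the CCAAT box, 8 the GC box, and 3 each (25%) TAATCC and TATAAA, and 0 held the remaining 4 motifs. The median GC content was 59.7% for mitotic, 68.2% for transport and 65.7% for other interphase windows, against 52.7% over all windows. The windows of Kif22, the most abundant mitotic kinesin, and of Kif5c, the transport kinesin with the smallest p between genotypes, follow, with every match to the 9 motifs in capitals. Kif5c is not typical of its class: its TAATCC and TATAAA are the only such matches in transport windows, and its GC content of 58% lies below the transport median. No 2 of these matches overlap.
Kif22 (chr7:127042371-127042670, minus strand): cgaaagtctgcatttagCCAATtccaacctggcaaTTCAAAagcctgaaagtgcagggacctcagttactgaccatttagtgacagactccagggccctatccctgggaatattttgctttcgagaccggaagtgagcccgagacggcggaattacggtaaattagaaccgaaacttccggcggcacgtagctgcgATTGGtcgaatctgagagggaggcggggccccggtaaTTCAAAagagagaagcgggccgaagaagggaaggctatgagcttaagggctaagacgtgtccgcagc
Kif5c (chr2:49619036-49619335, plus strand): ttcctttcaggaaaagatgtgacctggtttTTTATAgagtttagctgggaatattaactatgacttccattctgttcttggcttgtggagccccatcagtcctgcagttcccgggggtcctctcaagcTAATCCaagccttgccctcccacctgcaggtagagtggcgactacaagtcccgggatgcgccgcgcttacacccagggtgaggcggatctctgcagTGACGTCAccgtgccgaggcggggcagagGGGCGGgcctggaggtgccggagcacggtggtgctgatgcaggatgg
Kif22 has CHR matches beginning at bases -215 and -17, counted from the start, both on the other strand. Its CCAAT boxes begin at -233 and, on the other strand, at -54. Kif5c has a cyclic AMP response element at -26, the letters TAATCC at -122 and TATAAA on the other strand at -220, and a GC box just after its start.

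The comparison of CKO with WT asked whether kinesin messages change when Cyfip2 is deficient in the retina. No kinesin passed the threshold: 0 of 24 tested genes were called by limma at an adjusted p under 0.05, where 0.0227% of all 13215 tested genes were called, and the smallest adjusted p was 0.538. At an unadjusted p under 0.05, 2 kinesins, Kif5a and Kif5c, were higher (8.33%, against 3.52% of all genes) and 0 were lower (4.36% of all genes), where 7.88% of all genes had such a p in either direction. Without WT 1, 1 was higher (Kif5c) and 1 lower (Kif24), and without CKO 2, 1 was higher (Kif5c). Without WT 2, 3 were higher, with Kif1a added, and without WT 3, 3 were higher, with Kif3a added. The groups did not overlap for 6 of the 24, all with higher values in CKO (25%, against 6.96% of all genes higher, 6.95% lower and 13.9% in either direction). These were Kif1a, Kif5a, Kif5c, Kif21a, Kif3a and Kif26b. Among the 14 kinesins with at least 10 FPKM, log2 fold changes lay between -0.05 and 0.12, and their 95% confidence intervals between -0.17 and 0.23, which correspond to 0.889-fold and 1.17-fold on the scale of FPKM + 1. In tissue RNA, fewer cells of a type and less RNA per cell cannot be told apart.

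**Figure D3:**
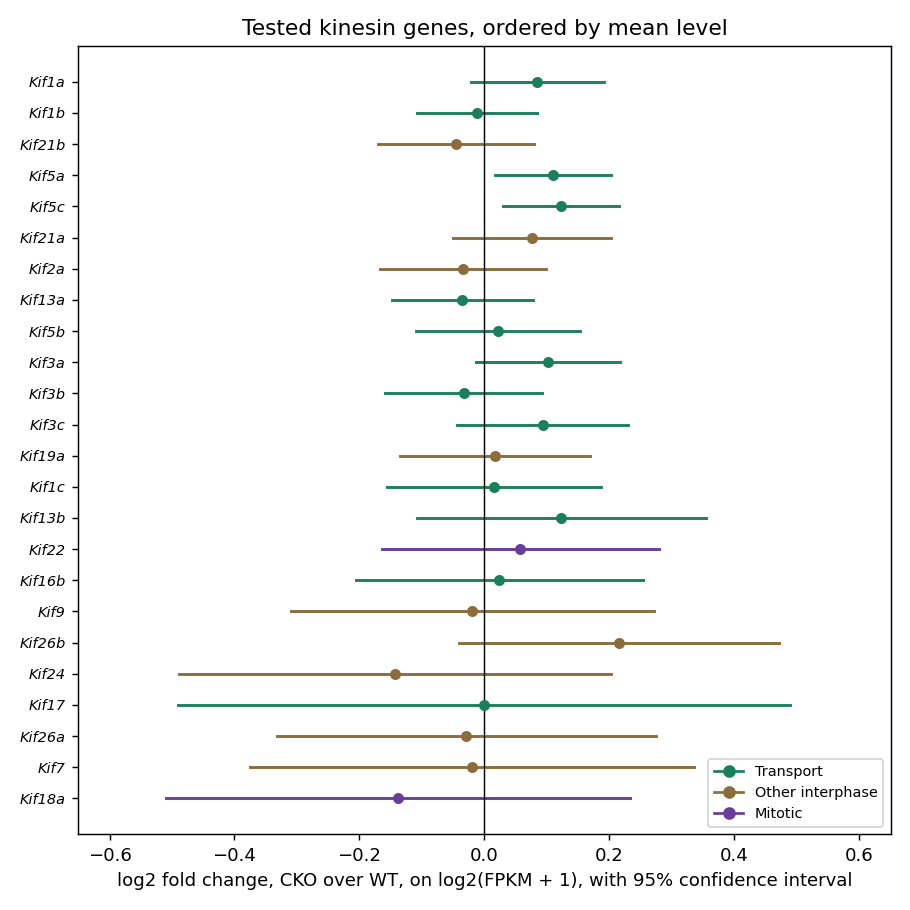
Log2 fold change of CKO over WT on log2(FPKM + 1) with its 95% confidence interval (limma) for the 24 tested kinesins, ordered from the highest mean level at the top and coloured by class. The intervals of Kif5a and Kif5c exclude 0 before adjustment, and those of the other 22 genes include it.

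Conventional kinesin, a pair of heavy chains with light chains, is the main anterograde motor of axons. Kif5c was at 69.6, 68.0 and 66.7 FPKM in CKO libraries 1 to 3 and at 62.9, 62.1 and 62.5 FPKM in WT libraries 1 to 3. All CKO libraries stood above all WT libraries, and the ratio of means was 1.09 (log2 fold change 0.12, SE 0.04, limma adjusted p = 0.538, unadjusted p = 0.0165). Kif5a was at 73.5, 75.2 and 73.7 FPKM in CKO retinas and at 67.1, 69.4 and 69.2 FPKM in WT libraries, again without overlap, with a ratio of 1.08 (log2 fold change 0.11, SE 0.04, limma adjusted p = 0.585, unadjusted p = 0.0257). Kif5b, the heavy chain found in most tissues, was at 33.7, 31.4 and 31.1 FPKM in CKO retinas and at 32.8, 32.0 and 29.9 FPKM in WT libraries, and its groups overlapped (log2 fold change 0.02, 95% confidence interval -0.11 to 0.15). The summed level of the Kif5 genes was 174.3 ± 2.70 FPKM in CKO retinas and 162.6 ± 0.936 FPKM in WT retinas (SD, n = 3 each), without overlap. As Kif5a and Kif5c made up most of it, the gap in this sum restates theirs and is not a separate observation. Kif5b contributed 18.4% ± 0.596 of this sum in CKO and 19.4% ± 0.83 in WT, with overlap, and Kif5c 39.1% ± 0.249 in CKO and 38.4% ± 0.37 in WT, without overlap. Kif5a had an unadjusted p above 0.05 when CKO 2 or WT 1 was left out and when the variance trend was dropped, while Kif5c stayed under 0.05 in all 17 alternative fits. Kif5c spans chr2:49619298-49774778 (plus strand) and Kif5a chr10:127225696-127263348 (minus strand) in GRCm38, and in GENCODE M21 no exon of either shares bases with another gene.

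Summed levels of some cell type markers stood apart between the genotypes, in both directions, although no marker passed the threshold. The 4 amacrine markers, Gad1, Slc6a9, Tfap2b and Pax6, all had fold changes above 0, and their summed level was 369.1 to 385.6 FPKM in CKO retinas and 328.8 to 344.7 FPKM in WT libraries. Of the 5 ganglion cell markers, 1 lay above 0 and 4 below 0, and their sum was 458.1 to 479.6 FPKM in CKO retinas and 496.7 to 540.0 FPKM in WT libraries. The 5 cone markers all lay below 0, with a sum of 492.1 to 543.5 FPKM in CKO retinas and 552.7 to 598.1 FPKM in WT libraries. The bipolar sum was 437.5 to 451.9 FPKM in CKO and 460.6 to 470.2 FPKM in WT libraries, with 2 markers above 0 and 3 below 0. The horizontal cell sum was 34.7 to 35.6 FPKM in CKO and 39.3 to 46.7 FPKM in WT libraries. Most of it was Calb1, with means of 26.64 FPKM in CKO and 33.75 FPKM in WT. Of the 4 horizontal cell markers, Onecut1 lay above 0 (log2 fold change 0.22) and 3 lay below 0. The endothelial sum was 26.6 to 31.3 FPKM in CKO and 31.6 to 36.8 FPKM in WT libraries, with all 3 markers below 0. None of these 6 sums overlapped between the genotypes. The sums of the rod and Muller glia markers overlapped, as did that of the lens markers, at 12.6 to 24.0 FPKM in CKO and 20.02 to 110.0 FPKM in WT libraries. Those of the microglia, pigment epithelium, cornea, oligodendrocyte, skeletal muscle and blood markers overlapped too. Of single tested genes, 13.9% did not overlap in either direction, and no such share was computed for sums. Of the markers in these lists, only the corneal Krt5 and Krt14 were at 0 in every library. The part of cell composition in the Kif5 levels was not tested.

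**Figure D4:**
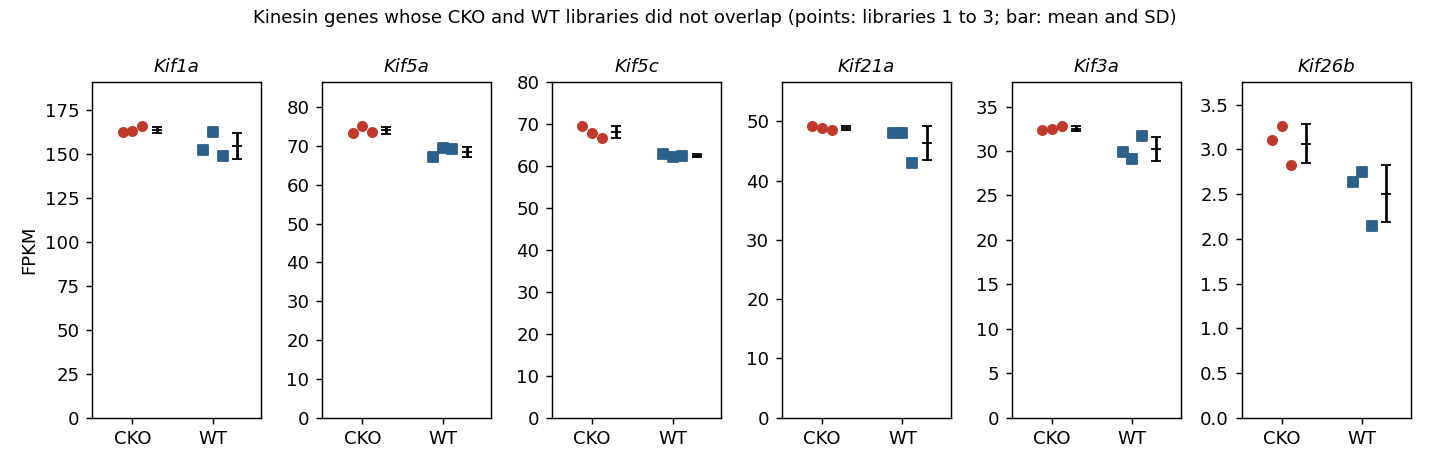
FPKM per library, with axes from 0, for the 6 kinesin genes whose CKO libraries all lay above the WT libraries; points are libraries 1 to 3 and bars the mean with its SD. The distance between the groups is small against the level in each panel, with ratios of means from 1.05 for Kif21a to 1.22 for Kif26b.

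The motors of vesicle precursors and mitochondria showed no difference past the threshold. Kif1a was at 162.4, 162.7 and 165.6 FPKM in CKO retinas and at 151.9, 162.4 and 148.5 FPKM in WT libraries. CKO 1 exceeded WT 2 by less than 0.1 FPKM, so that the groups only just did not overlap (log2 fold change 0.08, 95% confidence interval -0.02 to 0.19, limma adjusted p = 0.717). Kif1b was at 145.7, 151.2 and 155.2 FPKM in CKO retinas and at 150.3, 152.2 and 153.3 FPKM in WT libraries, and CKO libraries lay on both sides of the WT range (-0.01, interval -0.11 to 0.08). Kif1c, a vesicle motor of many tissues, was at 10.03, 11.2 and 10.9 FPKM in CKO retinas and at 10.4, 10.1 and 11.3 FPKM in WT libraries, and the groups overlapped. The ratio of Kif1a to Kif1b FPKM was 1.09 ± 0.0251 in CKO and 1.02 ± 0.0491 in WT (SD, n = 3 each), with touching ranges.

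The kinesin-II motor of intraflagellar transport pairs Kif3a with Kif3b, and pairs Kif3a with Kif3c in some neurons. Kif3a was at 32.3, 32.4 and 32.8 FPKM in CKO retinas and at 29.9, 29.1 and 31.7 FPKM in WT libraries, without overlap (ratio 1.07, log2 fold change 0.10, 95% confidence interval -0.01 to 0.22, limma adjusted p = 0.684). Kif3b was at 28.0, 30.6 and 27.7 FPKM in CKO retinas and at 29.6, 29.0 and 29.7 FPKM in WT libraries, with a fold change of the other sign (-0.03, interval -0.16 to 0.09). Both genes were thus near 30 FPKM, and the ratio of Kif3a to Kif3b was 1.13 ± 0.0647 in CKO and 1.03 ± 0.0357 in WT, with overlap. Kif3c was at 19.5, 20.4 and 21.9 FPKM in CKO retinas and at 19.7, 18.8 and 19.1 FPKM in WT libraries, where CKO 1 lay inside the WT range (0.09, interval -0.04 to 0.23). Kifap3 is the non-motor subunit that links the pair to cargo and lies outside the naming rule. It was at 52.8 ± 0.681 FPKM in CKO retinas and 50.3 ± 0.835 FPKM in WT, without overlap (log2 fold change 0.07, limma adjusted p = 0.744). Its ratio to Kif3a was 1.62 ± 0.0239 in CKO and 1.66 ± 0.0938 in WT. Kif17, a kinesin-II relative known from dendrites and from cone outer segments of zebrafish, was scarce and variable, at 0.961, 2.22 and 2.19 FPKM in CKO retinas and at 1.77, 2.07 and 1.36 FPKM in WT libraries. Exons of Kif3c overlap the antisense gene 1110002L01Rik and those of Kif17 the neighbour Sh2d5, both at 1 FPKM or more, and the sources used here do not say how strand entered the counting.

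**Figure D5:**
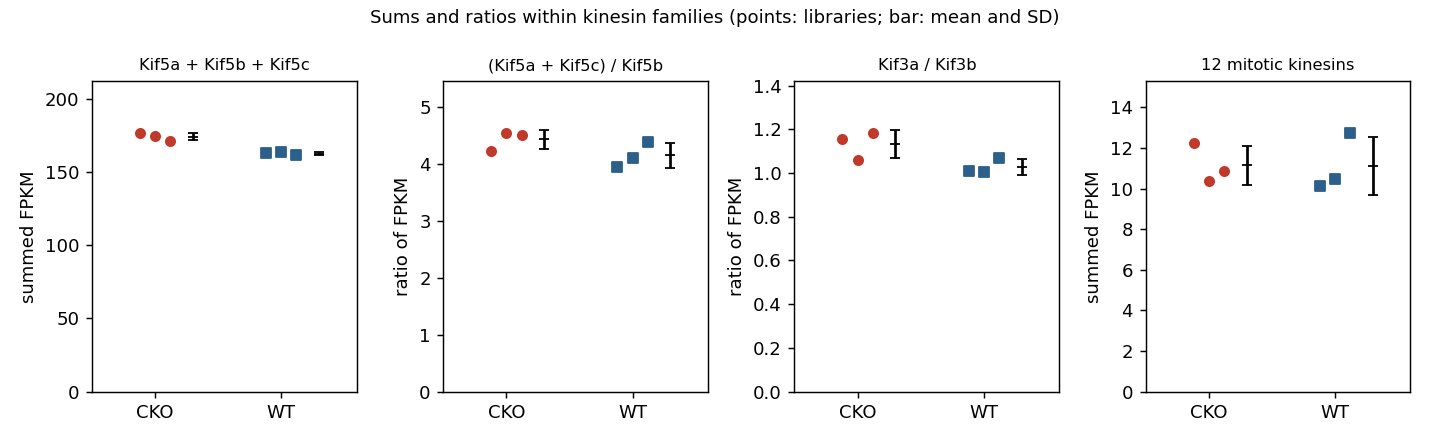
Per library, with axes from 0: summed FPKM of Kif5a, Kif5b and Kif5c, the ratio of Kif5a plus Kif5c to Kif5b, the ratio of Kif3a to Kif3b, and the summed FPKM of the 12 mitotic kinesins; bars are the mean and SD of 3 libraries. The Kif5 sum, made up mostly of Kif5a and Kif5c, is 171.4 to 176.8 in CKO and 161.6 to 163.5 in WT, and the groups overlap in the other panels.

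The remaining transport kinesins overlapped between genotypes. Kif13a, a motor of recycling endosomes, was at 32.2, 33.0 and 30.8 FPKM in CKO retinas and at 33.6, 32.6 and 32.2 FPKM in WT libraries (log2 fold change -0.04, 95% confidence interval -0.15 to 0.08). Its relative Kif13b, which binds the scaffold Dlg, averaged 6.64 ± 0.461 FPKM in CKO retinas and 6.03 ± 0.758 FPKM in WT retinas (SD, n = 3 each). Kif16b, a motor of early endosomes, averaged 4.88 ± 0.244 FPKM in CKO retinas and 4.79 ± 0.562 FPKM in WT. Over the 13 transport kinesins, 9 fold changes lay above 0 and 4 below 0 (69.2% above 0, against 49.5% over all tested genes). Their median log2 fold change was 0.02, against -0.0016 over all tested genes, and leaving out any single library gave a median of 0.04 (without CKO 2) to 0.09 (without CKO 1).

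None of the 9 tested kinesins of the other interphase class was called or had an unadjusted p under 0.05, but Kif24 had one without WT 1 (lower) and Kif26b without the variance trend (higher). Kif21b was at 94.2, 96.6 and 97.2 FPKM in CKO retinas and at 91.9, 102.2 and 103.5 FPKM in WT libraries (log2 fold change -0.05, 95% confidence interval -0.17 to 0.08), so that all CKO libraries lay inside the WT range. Kif21a, whose human counterpart is mutated in a congenital eye movement disorder, was at 49.2, 48.9 and 48.6 FPKM in CKO retinas and at 48.1, 48.0 and 43.0 FPKM in WT libraries. Its groups did not overlap, with WT 3 the low library (0.08, interval -0.05 to 0.20, limma adjusted p = 0.775). Kif2a, a microtubule depolymerase that prunes axon branches, was at 32.8, 36.2 and 32.2 FPKM in CKO retinas and at 33.7, 35.3 and 34.6 FPKM in WT libraries, and its groups overlapped; its exons share bases with Dimt1 on the opposite strand. Kif19a, a depolymerase that sets the length of motile cilia, was at 20.2, 17.7 and 19.6 FPKM in CKO retinas and at 18.2, 19.1 and 19.5 FPKM in WT libraries, and CKO libraries lay on both sides of the WT range.

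Kif26b, an atypical kinesin needed for kidney development, had the highest fold change of the tested kinesins, from a low level. It was at 3.11, 3.26 and 2.83 FPKM in CKO retinas and at 2.64, 2.74 and 2.14 FPKM in WT libraries, without overlap (ratio 1.22, log2 fold change 0.22, SE 0.11, limma adjusted p = 0.698). Its relative Kif26a, a modulator of Ret signalling in enteric neurons, averaged 1.69 ± 0.2 FPKM in CKO retinas and 1.76 ± 0.329 FPKM in WT. Kif9, of motile cilia, averaged 4.75 ± 0.527 FPKM in CKO retinas and 4.85 ± 0.799 FPKM in WT. Kif24, of centrioles, averaged 1.67 ± 0.0976 FPKM in CKO retinas and 1.99 ± 0.519 FPKM in WT. Kif7, a Hedgehog pathway regulator at the cilium tip, averaged 1.22 ± 0.225 FPKM in CKO retinas and 1.26 ± 0.343 FPKM in WT. Kif27, the paralog of Kif7, averaged 0.628 ± 0.0887 FPKM in CKO retinas and 0.66 ± 0.141 FPKM in WT, and Kif6 0.172 ± 0.11 FPKM in CKO retinas and 0.358 ± 0.123 FPKM in WT, with overlap. Of the 9 tested genes of this class, 3 lay above 0 and 6 below 0.

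Mitotic kinesins were low in both genotypes, and no difference was detectable at these levels. Kif22, a chromokinesin that pushes chromosome arms, was by far the most abundant, at 6.82, 5.45 and 5.84 FPKM in CKO retinas and at 5.65, 5.50 and 6.09 FPKM in WT libraries, and its groups overlapped (log2 fold change 0.06, 95% confidence interval -0.16 to 0.28). Kif18a, which aligns chromosomes, was at 1.04, 1.18 and 0.884 FPKM in CKO retinas and at 1.22, 0.877 and 1.68 FPKM in WT libraries, with overlap (-0.14, interval -0.51 to 0.23). Kif4, a chromokinesin of the central spindle, was at 1.11, 0.755 and 0.878 FPKM in CKO retinas and at 0.856, 0.978 and 1.09 FPKM in WT libraries and missed the filter. Exons of Kif18a, Kif4 and Kif20a share bases with Mettl15, Pdzd11 and Cdc23, in that order, on the opposite strand.

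Kif11, the motor that separates spindle poles, averaged 0.891 ± 0.0647 FPKM in CKO retinas and 0.887 ± 0.158 FPKM in WT retinas (SD, n = 3 each). The cytokinesis motors were lower: Kif20b averaged 0.714 ± 0.106 FPKM in CKO retinas and 0.612 ± 0.258 FPKM in WT, Kif20a 0.596 ± 0.159 FPKM in CKO retinas and 0.597 ± 0.155 FPKM in WT, Kif14 0.268 ± 0.0758 FPKM in CKO retinas and 0.282 ± 0.15 FPKM in WT, and Kif23 0.145 ± 0.0944 FPKM in CKO retinas and 0.137 ± 0.051 FPKM in WT. Kif15, a spindle motor that backs up Kif11, averaged 0.315 ± 0.102 FPKM in CKO retinas and 0.359 ± 0.054 FPKM in WT. The depolymerase Kif2c averaged 0.121 ± 0.0659 FPKM in CKO retinas and 0.168 ± 0.202 FPKM in WT, and Kif18b, its partner on growing microtubule ends, 0.114 ± 0.0683 FPKM in CKO retinas and 0.0989 ± 0.0509 FPKM in WT. For genes this low the spread between libraries was wide, with a median coefficient of variation of 28.5% over the 11 kinesins below 1 FPKM, against 3.42% over the 14 with at least 10 FPKM. With the filter lowered to 0.1 FPKM, no kinesin below 1 FPKM was called, and the smallest adjusted p among these belonged to Kif6 (0.744, limma). The summed level of the mitotic kinesins was 11.2 ± 0.964 FPKM in CKO retinas and 11.1 ± 1.42 FPKM in WT, about the same value.

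Proliferation genes measured beside them ranged from well below 1 FPKM to about the level of Kif22 or above it. Mki67, the classic marker of dividing cells, was at 0.212 to 0.227 FPKM in CKO retinas and 0.0764 to 0.262 FPKM in WT libraries, and Top2a at 0.127 to 0.341 FPKM in CKO retinas and 0.192 to 0.31 FPKM in WT libraries. Of 20 proliferation genes, 6 reached the filter and none was called or had an unadjusted p under 0.05. The smallest p among them belonged to the mitotic kinase Plk1, the centromere protein Incenp and the cyclin Ccna2. Plk1 was at 1.42 ± 0.397 FPKM in CKO retinas and 1.005 ± 0.0932 FPKM in WT, with overlap. Incenp was at 8.94 ± 1.28 FPKM in CKO retinas and 7.76 ± 0.537 FPKM in WT, and Ccna2 at 8.62 ± 0.507 FPKM in CKO retinas and 9.31 ± 1.38 FPKM in WT. Aurkb, untested and near 0, was at 0, 0 and 0.0667 FPKM in CKO libraries and at 0.789, 0.144 and 0.371 FPKM in WT libraries, without overlap. Over all 20 genes, 12 fold changes lay above 0 and 8 below 0.

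Partners of the kinesins did not pass the threshold either. Of 11 relatives and subunits outside the naming rule, all tested, 4 lay above 0 and 7 below 0 and none was called or had an unadjusted p under 0.05. Without overlap, 1 of the 11, Kifap3, was higher and 0 were lower in CKO, against 6.96% and 6.95% of all tested genes. Kifc3, a minus-end-directed kinesin, was at 12.5 ± 1.14 FPKM in CKO retinas and 14.4 ± 1.48 FPKM in WT retinas (log2 fold change -0.18, limma adjusted p = 0.696). Klc3, a kinesin light chain, was at 94.5 ± 2.39 FPKM in CKO retinas and 99.9 ± 5.13 FPKM in WT retinas (-0.08, limma adjusted p = 0.764). The 4 light chain genes summed to 405.9 ± 6.40 FPKM in CKO retinas and 406.8 ± 10.8 FPKM in WT, more than the Kif5 heavy chain sum in either genotype.

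Among 29 cargo adaptor genes, 15 lay above 0 and 14 below 0, none was called, and 1 in each direction had an unadjusted p under 0.05. Without overlap, 1 of the 29 was higher and 3 were lower in CKO, against 6.96% and 6.95% of all tested genes. Lin7c, a Lin7 scaffold protein of the kind that links Kif17 to NMDA receptor vesicles, was at 30.4, 32.7 and 30.7 FPKM in CKO retinas and at 38.4, 35.0 and 40.8 FPKM in WT libraries. Its groups did not overlap (log2 fold change -0.27, SE 0.07, limma adjusted p = 0.378). Ppfia4, a liprin of the kind that links Kif1a to synaptic cargo, was at 15.4, 16.2 and 15.6 FPKM in CKO retinas and at 12.99, 14.6 and 12.7 FPKM in WT libraries, also without overlap (0.22, SE 0.07, limma adjusted p = 0.507). Trak2, a mitochondrial adaptor of Kif5, was at 58.6 ± 2.02 FPKM in CKO retinas and 61.6 ± 0.964 FPKM in WT, without overlap.

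Dynein is the motor that runs the other way. A list of 26 genes of dynein, its partner complex dynactin, and their regulators and adaptors gave 15 above 0 and 11 below 0. None was called and none had an unadjusted p under 0.05 (limma). The dynein heavy chain Dync1h1 was at 84.4, 87.8 and 88.9 FPKM in CKO retinas and at 79.5, 84.5 and 77.9 FPKM in WT libraries (0.11, 95% confidence interval -0.00034 to 0.22, limma adjusted p = 0.635), with WT 2 just above CKO 1. Dynlrb1, a dynein light chain, was at 142.6 ± 3.68 FPKM in CKO retinas and 154.2 ± 12.03 FPKM in WT. The light intermediate chain gene Dync1li1 was at 62.3 ± 1.81 FPKM in CKO retinas and 67.2 ± 4.73 FPKM in WT. Neither overlapped between the genotypes. Without overlap, 0 of the 26 genes were higher and 3 were lower in CKO, against 6.96% and 6.95% of all tested genes.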

How the data were processed

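Per the labels' protocols, retinal RNA was isolated with TRIzol, and TruSeq stranded mRNA libraries were prepared from it. The submitters' processing notes list Bowtie2 2.3.5.1, TopHat2 2.0.13, Cufflinks 2.2.1 and SAMtools 1.11 and the build mm10, with no roles; annotation, parameters and strand handling are not given in the sources. The authors deposited FPKM, 1 value per gene symbol, summing to 402831.8 to 436299.1 per library. FPKM holds no counts, so the depth is unknown and precision was taken from the spread between libraries. In WT 3, 27 symbols had turned into dates and were restored.

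Values were transformed to log2(FPKM + 1), which understates the change of low genes. CKO was set against WT using limma 3.58.1 (R 4.3.3) (eBayes with a variance trend, two-sided, no covariate) over the 13215 genes whose mean reached 1 FPKM, with Benjamini-Hochberg adjustment over all of them and a threshold of 0.05. The fit was tested on simulated data. Alternatives were other pseudocounts, filters, scalings and eBayes settings, array weights, a replicate block and each library left out in turn. Values per library are given for interphase kinesins of at least 10 FPKM, for tested kinesins with an unadjusted p under 0.05 or without overlap, and for the 3 most abundant mitotic kinesins; of partner lists, up to 3 genes of smallest p are named. Kif17 and Aurkb were added after their values were seen. Members and lists were chosen with earlier results of these data known. Positions come from GENCODE M21 on GRCm38, the assembly that mm10 names, and promoter windows from RefSeq on GRCm38.p6.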

Additional observations from a re-analysis of the deposited data

How the results depend on the processing

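The count of 0 called kinesins held in all 17 alternative fits, in which the smallest adjusted p of a kinesin lay between 0.382 and 0.835. Of 17 kinesins followed through the alternatives, 11 kept the sign of their fold change throughout, Kif1a, Kif3a, Kif5a, Kif5c, Kif21a and Kif26b among them. The other 6 lay near 0 and turned sign in 10 of their values: Kif19a with array weights (-0.0243) and without CKO 1 (-0.021) or WT 1 (-0.0113), Kif1b (0.0118), Kif5b (-0.0135) and Kif22 (-0.0211) without CKO 1, Kif5b without WT 3 (-0.0142), Kif1c without CKO 2 (-0.016) or WT 2 (-0.0184), and Kif3b with array weights (0.00021). With single libraries left out, Kif19a ranged from -0.021 to 0.0707, Kif1b from -0.033 to 0.0118, Kif1c from -0.0184 to 0.0586, Kif5b from -0.0142 to 0.0501 and Kif22 from -0.0211 to 0.117. The cause was not tested. In the 6 genes named as keeping their sign, every CKO library lay above every WT library. Leaving out 1 library or changing the pseudocount thus could not turn their sign. Filters, eBayes settings and the replicate block leave a fold change as it is. Their constant sign is therefore no separate evidence of a difference.

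The median log2 fold change of the transport kinesins, 0.0239, was 0.0847 with a minimum mean of 5 FPKM, which drops 2 low genes, 0.0717 with array weights, and 0.036 to 0.0897 with single libraries left out. That of the 11 mitotic kinesins above 0, 9 of them untested, was -0.00072; it was -0.0407 over the 2 tested ones, 0.0572 with a minimum mean of 5 FPKM, which leaves Kif22 alone, and -0.0652 (without WT 1) to 0.0529 (without WT 3) with single libraries left out. Over all genes, 2 were called higher: 1 with the replicate block, 1 without the variance trend, and 1 to 3 with single libraries left out. The 1 gene called lower was lost, with 0 called, without the filter, with robust eBayes and without the trend, and the count was 0 to 1 with single libraries left out. Deviations of same-numbered CKO and WT libraries correlated at 0.0718, 0.00634 and 0.101. CKO 1 and CKO 3 correlated best with the WT library of their own number, but CKO 2 with WT 1 (0.0363). All of these values were small, and the numbers were not taken to pair the libraries. With the replicate block 0 kinesins were called.

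The absence of counts limits what can be said of mitotic kinesins, whose values are low and variable.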
